A study of Mus musculus with 6 samples.

Results

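Regulators of G-protein signalling (RGS genes) were examined in cultured mouse macrophages with and without Ahrr, which encodes a repressor of aryl hydrocarbon receptor activity. The set was Rgs1, Rgs2, Rgs3, Rgs10, Rgs14, Rgs18 and Rgs19, and 6 of these 7 symbols matched a row among the 16111 rows of the annotated expression table. No annotated row carried the symbol Rgs18. The set was taken by gene symbol and selected on the fold changes and levels that an earlier pass over this comparison had shown, so the values below describe where each gene stands and are not independent evidence for the set. The wild-type group (genotype WT) and the Ahrr-deficient group (AhRR-/-) each had 3 libraries, from fetal liver cells of strain C57BL/6 RCC taken at E13.5 of gestation. Both groups were kept for 5 weeks in culture with 2% GM-CSF, a growth factor for macrophages, and RNA came from the non-adherent cells. The labels give each library a mouse number within its genotype. Neither the deleted part of Ahrr nor any pooling of fetuses is given in the sources used here, and the p-values measure only the spread between these cultures.

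G-protein-coupled receptors act through G proteins, whose alpha subunit is active while it holds GTP and releases the beta-gamma pair. RGS proteins bind active alpha subunits and speed the hydrolysis of GTP, so they shorten the signal that a receptor such as a chemokine receptor sends. In immune cells RGS proteins are known for limiting migration towards chemokines. Rgs1, Rgs2, Rgs3 and Rgs18 belong to one subfamily, Rgs10 and Rgs14 to another, and Rgs19 to yet another. Rgs1 and Rgs2 are also known as transcripts that rise quickly when a cell is stimulated.

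Total counts per library ranged from 3556106 in Ahrr-deficient replicate 1 to 41668336 in Ahrr-deficient replicate 2. In wild-type replicate 2 a ribosomal RNA gene, CT010467.1, took 5.28% of the counts, against at most 0.0679% in each other library. Ahrr itself was at 48.9, 50.1 and 55.2 normalized counts in wild-type replicates 1, 2 and 3 and at 23.4, 26.2 and 12.6 in the Ahrr-deficient ones, so the groups did not overlap and reads remained in every Ahrr-deficient library. Normalized counts are read counts divided by a size factor per library, as the authors deposited them. All 13 listed macrophage markers had a row, and their sum lay between 286190 and 316000 normalized counts in wild-type and between 189490 and 270580 in Ahrr-deficient libraries. Most of that sum was Lyz2, at 203460 to 235580 in wild-type and 126810 to 199440 in Ahrr-deficient libraries. Among other cell types that hold RGS transcripts, no row was found for the 8 listed B cell markers, for the T cell genes Cd3e, Cd3d and Cd3g or for the platelet genes Pf4 and Ppbp. The T and NK cell list did have rows for 3 of 11 genes and the megakaryocyte and platelet list for 4 of 10. Of these, Il7r had means of 586 and 304 normalized counts in wild-type and Ahrr-deficient cells, and Vwf of 1951 and 2872. The mast cell list had 1 row of 11, Hdc, at 0 in each wild-type library and at most 2.93 normalized counts in the others.

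Rgs1 and Rgs2 were far lower in Ahrr-deficient cells, while Rgs10, Rgs14 and Rgs19 were not past the threshold and Rgs3 fell under the filter on low counts. Counts were fitted with edgeR's quasi-likelihood test over 11408 genes, with p-values adjusted over all of them by the Benjamini-Hochberg method and a threshold of 0.05. Of the 5 members with enough reads to be tested, 2 passed, both lower, against 19.6% of all tested genes in either direction and 9.95% lower. Both were at least 2-fold lower, and 2.6% of all tested genes passed with a fall of that size. In bulk RNA, fewer cells that hold a transcript and less of it per cell cannot be told apart.

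**Figure D1:**
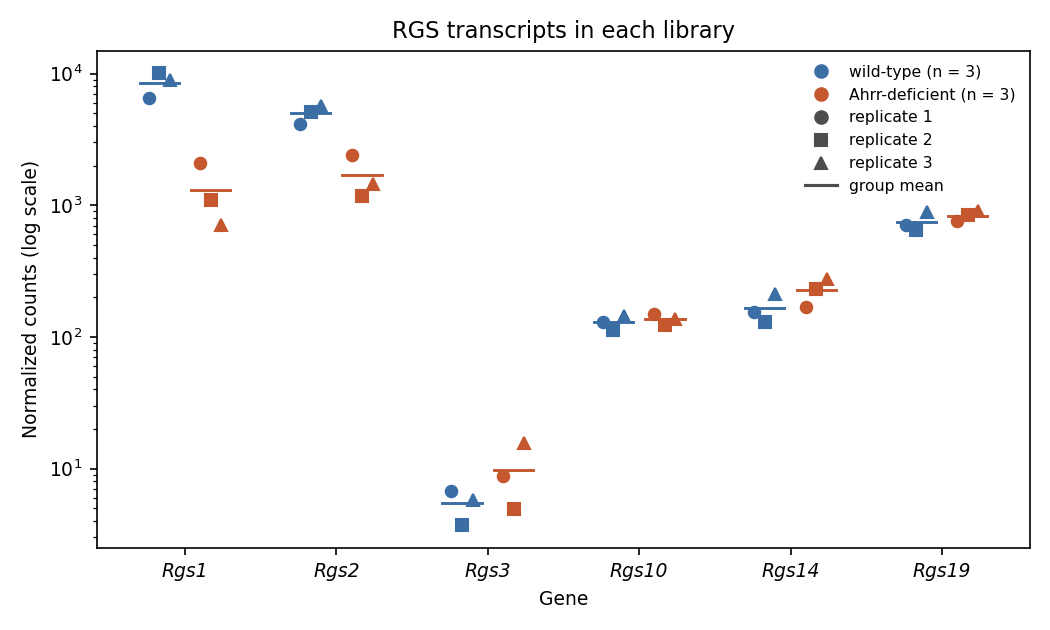
Normalized counts of the 6 RGS members with a row (vertical axis, log scale) in wild-type (blue) and Ahrr-deficient (orange) libraries; each symbol is 1 library and each line a group mean. The 3 orange points lie below the 3 blue ones for Rgs1 and Rgs2, and the groups overlap for Rgs3, Rgs10, Rgs14 and Rgs19.

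Rgs1 (ENSMUSG00000026358.13) encodes an RGS protein that acts on the alpha subunits of the Gi and Gq classes and is known for restraining chemokine responses of lymphocytes. It is a protein-coding gene on the minus strand of chromosome 1, from 144242296 to 144249242 (GRCm38, GENCODE mouse release 21). It stood at 6565, 10048 and 8921 normalized counts in wild-type replicates 1, 2 and 3. In Ahrr-deficient replicates 1, 2 and 3 it stood at 2110, 1095 and 714. Every wild-type library was above every Ahrr-deficient one, and Ahrr-deficient replicate 1, the shallowest library with 721 Rgs1 reads, was the nearest to wild-type. The mean was 8511 ± 1777.5 (SD, n = 3) in wild-type and 1306 ± 722 (SD, n = 3) in Ahrr-deficient cells, a 6.52-fold lower level. In log2 units the fitted change was -2.72 (edgeR adjusted p 0.00286, SE 0.36). Among the 11408 tested genes, 22 had a larger fall. The spread between replicates was also wider in Ahrr-deficient cells, with a coefficient of variation of 55.3% against 20.9%, a difference that was not tested.

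Rgs2 (ENSMUSG00000026360.9), whose protein is known for its preference for the alpha subunit of the Gq class, lies on the same strand of chromosome 1, from 143999338 to 144004161. It stood at 4146, 5150 and 5678 normalized counts in wild-type replicates 1, 2 and 3. In Ahrr-deficient replicates 1, 2 and 3 it stood at 2426, 1168 and 1459. The groups did not overlap, and Ahrr-deficient replicate 1 was again the highest of its group. The mean fell from 4991 ± 778 to 1684 ± 659 (SD, n = 3 each), a 2.96-fold lower level, at -1.58 in log2 fold change (edgeR adjusted p 0.00519, SE 0.25). A larger fall was seen for 111 of the 11408 tested genes. Groups that do not overlap, with the Ahrr-deficient one lower, were found for 19.5% of all tested genes.

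The promoter window of Rgs2 is shown because Ahrr encodes a repressor that competes with the aryl hydrocarbon receptor (AhR) for its partner and for its DNA element, and that of Rgs19 because its transcript did not pass the threshold. Windows are from RefSeq (GRCm38.p6), run from 250 bases before the start site to 50 after it, and were matched for 4 of the 7 members. These were Rgs2, Rgs3, Rgs10 and Rgs19, so the promoter of Rgs1, the member with the largest change, could not be examined. The 250 bases before the start site are printed. Capitals mark GCGTG, the core of the AhR element, and TGACG, the core shared by cAMP response elements, on either strand. The Rgs2 stretch is chr1:144004150-144004399 and the Rgs19 stretch, the first of 3 windows, chr2:181693978-181694227, both on the minus strand and written 5′ to 3′ in the direction of the gene.
Rgs2: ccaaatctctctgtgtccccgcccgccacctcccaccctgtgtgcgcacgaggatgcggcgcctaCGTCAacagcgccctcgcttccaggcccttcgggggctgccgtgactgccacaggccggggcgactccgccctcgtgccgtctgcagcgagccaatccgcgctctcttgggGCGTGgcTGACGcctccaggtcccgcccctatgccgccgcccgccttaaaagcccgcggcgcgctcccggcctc
Rgs19: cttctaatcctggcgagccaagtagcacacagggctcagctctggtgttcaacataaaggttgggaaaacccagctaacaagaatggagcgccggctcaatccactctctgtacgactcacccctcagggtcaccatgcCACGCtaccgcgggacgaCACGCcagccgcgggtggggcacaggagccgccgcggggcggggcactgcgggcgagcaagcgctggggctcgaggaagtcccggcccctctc
In the Rgs2 window GCGTG starts at position -74 on the gene's strand, counted from the start site, and TGACG at -67 on that strand and at -185 on the other. The printed Rgs19 window holds GCGTG at -111 and -93, both on the other strand. Of its windows not printed, window 2 holds GCGTG at -89 on the gene's strand and window 3 does not hold it. TGACG is in none of the 3 Rgs19 windows. Of the 32851 promoter windows of this length, 32.4% hold GCGTG and 20.8% hold TGACG on either strand. The windows of Rgs10, which also did not pass the threshold, and of Rgs3, which was not tested, hold neither and are not printed. A match is a run of letters and not evidence of binding.

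The ratio of the 2 transcripts, a description with no test, did not overlap between the genotypes. Rgs1 had 1.58, 1.95 and 1.57 times the normalized counts of Rgs2 in wild-type replicates 1, 2 and 3. It had 0.870, 0.937 and 0.489 times those of Rgs2 in the Ahrr-deficient replicates. Rgs1 was thus the more abundant of the pair by reads in each wild-type library and the less abundant in each Ahrr-deficient one. Per kilobase of the longest protein-coding transcript in the annotation (3841 bases for Rgs1 and 3021 for Rgs2), the mean level was 2216 ± 463 for Rgs1 and 1652 ± 258 for Rgs2 in wild-type cells (SD, n = 3). In Ahrr-deficient cells it was 340 ± 188 for Rgs1 and 558 ± 218 for Rgs2. With the length of all annotated exons of a gene in its place the order in wild-type cells turned, to 1225 for Rgs1 and 1376 for Rgs2, so that order is uncertain. The lower level of Rgs1 in Ahrr-deficient cells held with either length.

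Rgs19 (ENSMUSG00000002458.13, chromosome 2, 181688419 to 181693977, minus strand) encodes a protein first known for its interaction with a Gi alpha subunit. It was the third most abundant member per kilobase in wild-type cells, at 496 ± 79.4 normalized counts per kilobase, and stood at 551 ± 48.2 in Ahrr-deficient cells (SD, n = 3). Its normalized counts were 713, 651 and 882 in wild-type and 758, 839 and 903 in Ahrr-deficient replicates 1, 2 and 3, and the groups overlapped. In log2 units the change was 0.16 (95% interval -0.11 to 0.43, SE 0.12, edgeR adjusted p 0.366).

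Rgs10 (ENSMUSG00000030844.11, chromosome 7, 128373621 to 128418758, minus strand) encodes one of the smallest RGS proteins, known from microglia and other myeloid cells. It stood at 130, 113 and 144 normalized counts in wild-type and at 149, 123 and 136 in Ahrr-deficient replicates 1, 2 and 3. The groups overlapped, with a log2 fold change of 0.03 (95% interval -0.28 to 0.34, SE 0.14, edgeR adjusted p 0.896). Rgs14 (ENSMUSG00000052087.14, chromosome 13, 55369732 to 55384687, plus strand) encodes a scaffold that also binds small GTPases of the Ras and Rap kind. It stood at 154, 130 and 210 normalized counts in wild-type and at 170, 231 and 274 in Ahrr-deficient replicates 1, 2 and 3. Ahrr-deficient replicate 1 lay within the wild-type range. In log2 units the change was 0.49 (edgeR adjusted p 0.102, SE 0.19). Without Ahrr-deficient replicate 1 it was 0.59 with an edgeR adjusted p of 0.0291, and over 13 other settings the adjusted p of Rgs14 ran from 0.00823 to 0.316.

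Rgs3 (ENSMUSG00000059810.18, chromosome 4, 62559847 to 62704001, plus strand), a longer member with several protein forms, was near the limit of detection. It had 3.71 to 6.77 normalized counts in wild-type and 4.89 to 15.7 in Ahrr-deficient libraries. The floor of 3 reads was 8.78 normalized counts in Ahrr-deficient replicate 1 and 0.734 in Ahrr-deficient replicate 2, and floors cover counting error only. Rgs3 did not pass the filter on low counts. In the edgeR fit without that filter Rgs3 was at 0.50 in log2 units (SE 0.52) with an adjusted p of 0.608, so a difference was not detectable at this depth. The order of the mean levels per kilobase of the longest protein-coding transcript in wild-type cells was Rgs1, Rgs2, Rgs19, Rgs10, Rgs14 and Rgs3. As above, the order of Rgs1 and Rgs2 there depended on the length used. In Ahrr-deficient cells it was Rgs2, Rgs19, Rgs1, Rgs10, Rgs14 and Rgs3, with means of 558 ± 218, 551 ± 48.2 and 340 ± 188 for the first 3 (SD, n = 3). Rgs1 was below Rgs2 in each of these libraries, whereas Rgs19 was below both in Ahrr-deficient replicate 1 and above both in replicates 2 and 3. Rgs10 stood at 147 and Rgs14 at 70.0 per kilobase in wild-type cells, against 155 and 95.6 in Ahrr-deficient cells.

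The makeup of the RGS transcript pool followed from these values. Another 3 RGS genes of a list of 15 had a row, namely Rgs4, Rgs11 and Rgs12. Rgs11 was the only one of these 3 above the filter, at 0.21 in log2 fold change (edgeR adjusted p 0.479, SE 0.19), and an exon of Arhgdig overlaps it on the opposite strand. Summed per kilobase over the 9 genes with a row, RGS transcripts came to 4618 ± 703 in wild-type and 1743 ± 340 in Ahrr-deficient cells (SD, n = 3). Rgs1 and Rgs2 together made up 80.9%, 86.8% and 82.9% of that sum in wild-type replicates 1, 2 and 3 and 63.4%, 44.4% and 42.2% in the Ahrr-deficient ones. The share of Rgs19 was 10.9% ± 1.96 in wild-type and 32.7% ± 7.94 (SD, n = 3) in Ahrr-deficient cells. The sum without Rgs1 and Rgs2 was 750 ± 107 and 846 ± 66.4, with overlapping ranges of 656 to 867 and 782 to 914.

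**Figure D2:**
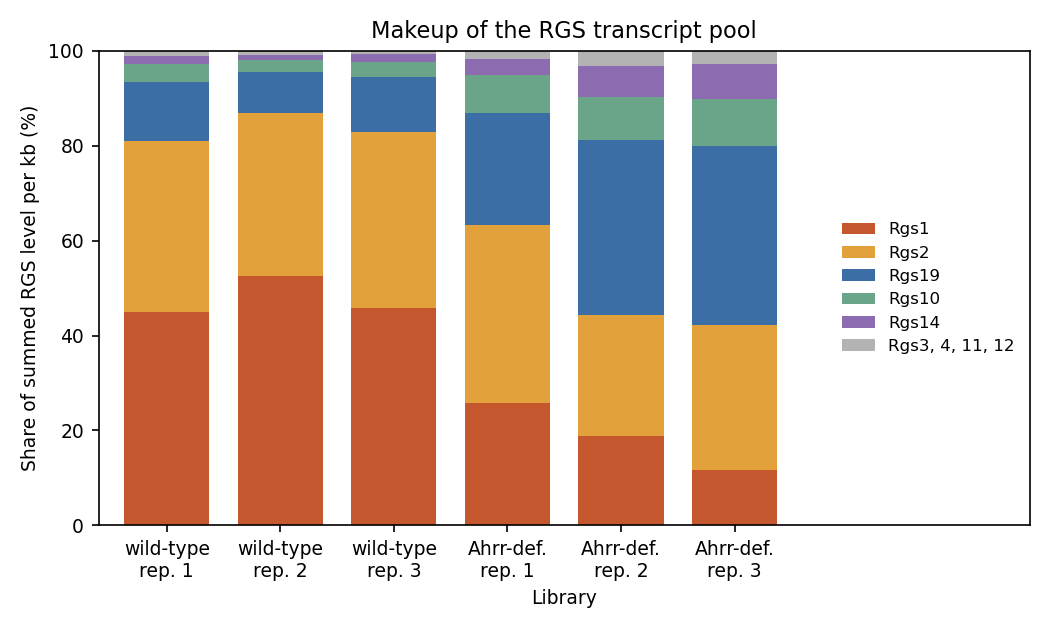
Share (%, vertical axis) of each RGS gene in the summed RGS level per kilobase, 1 bar per library. Rgs1 and Rgs2 fill 80.9% to 86.8% of the wild-type bars and 42.2% to 63.4% of the Ahrr-deficient bars, and Ahrr-deficient replicate 1 lies between the other Ahrr-deficient libraries and wild-type.

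Rgs2, Rgs1 and Rgs18 are neighbours: all are on the minus strand within 776 kb of chromosome 1, with the start of Rgs2 245 kb and that of Rgs18 526 kb from the start of Rgs1. Rgs13 and Rgs21 lie between them, and no annotated row carried either symbol. From 1 Mb before Rgs2 to 1 Mb after Rgs18, 8 of the 25 annotated genes had a row, and all 8 were tested. All of them but Rgs1 start on the Rgs2 side of Rgs1, 245 to 1155 kb away, so the Rgs18 side was not covered. Rgs1 and Rgs2 were the called ones, and 0 of the other 6 passed (edgeR adjusted p 0.278 to 0.972). At an unadjusted p under 0.05 the count for those 6 was also 0. Uchl5, a deubiquitinase gene on the far side of Rgs2, stood at 206, 219 and 224 normalized counts in wild-type and at 231, 237 and 217 in Ahrr-deficient libraries. Cdc73, which encodes a part of the PAF1 transcription complex, had a log2 fold change of 0.08 (SE 0.09), and Glrx2, a glutaredoxin gene, one of 0.13 (SE 0.11). The values of Trove2, the pseudogene Gm5835 and Gm29170, a transcript inside Uchl5, were -0.12, -0.36 and 0.03.

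**Figure D3:**
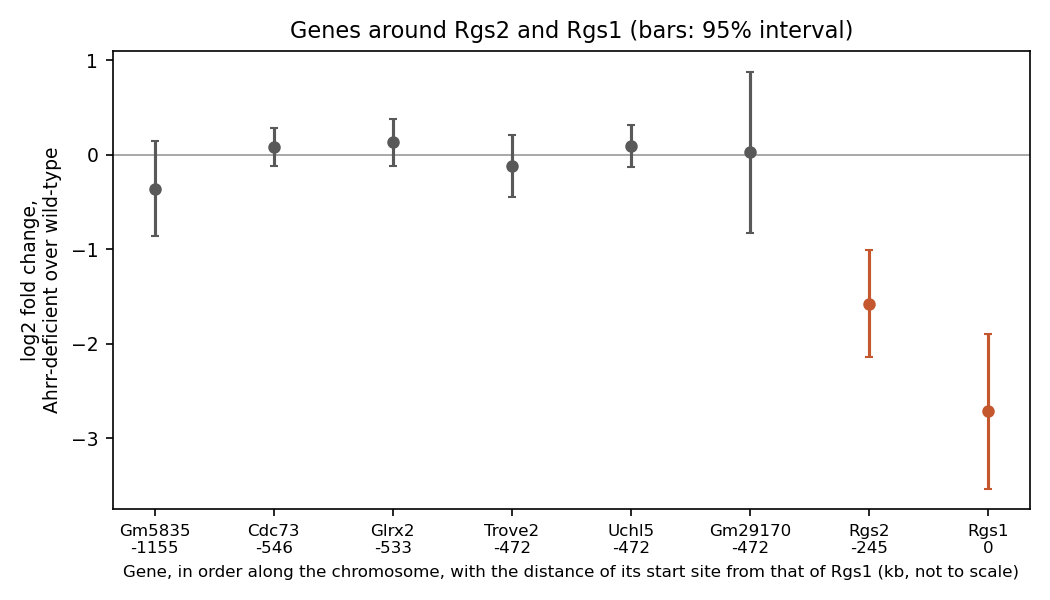
Log2 fold change with its 95% interval (vertical axis) of the 8 genes with a row, in order along the chromosome. Rgs1 is the last of them, and none lies on its Rgs18 side. The distance of each start site from that of Rgs1 is in kb, and orange marks an adjusted p under 0.05. Rgs2 and Rgs1 lie at -1.58 and -2.72, and the intervals of the other 6 include 0.

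Across the 6 libraries Rgs1 and Rgs2 had a Pearson r of 0.970 in log2 CPM (counts scaled to a common library total), and Rgs14 and Rgs19 one of 0.956. These points share their libraries and 2 genotypes, so the values are a description. Among 10033 genes averaging 50 counts or more, the patterns closest to Rgs1 were those of Pick1 (r 0.997), Oasl2 (0.995) and Btf3 (0.995). Those closest to Rgs2 were Dnajc8 (r 0.997), Neurl3 (0.996) and Ncoa2 (0.996). Likeness in pattern did not mean likeness in size: Oasl2 and Neurl3 had log2 fold changes of -1.76 and -1.38, and Btf3 and Dnajc8 both -0.12. Closest to Rgs14 were Hmmr, Ccnf and Cenpe (r 0.991, 0.990 and 0.988), to Rgs19 Ccnb2, Xylb and Cenpe (r 0.994, 0.991 and 0.980) and to Rgs10 Gbp2, Plxna4 and Vcp (r 0.997, 0.985 and 0.983). For the best of 10033 genes over 6 libraries, an r this high can arise by chance. No test against chance was made, so these matches are not evidence of shared regulation.

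Other proteins that carry an RGS domain include the receptor kinases, which switch receptors off, and 13 of a list of 14 were tested. Grk3, a receptor kinase, fell from 414 ± 57.3 to 189 ± 26.4 normalized counts (SD, n = 3), or -1.17 in log2 fold change (edgeR adjusted p 0.00203, SE 0.14). Snx25, a sorting nexin, rose from 248 ± 27.1 to 397 ± 7.43, or 0.66 in log2 fold change (edgeR adjusted p 0.00496, SE 0.10). The groups did not overlap for either, which held for 19.5% of all tested genes on the lower side and 19.1% on the higher. The other 11, among them the kinases Grk2, Grk5 and Grk6, did not pass, so 15.4% of the list were called against 19.6% of all tested genes. The list's median log2 fold change was -0.07, against 0.0076 over all tested genes. This list and those below were chosen with earlier results of these data known, so their called shares are a description.

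G alpha subunits are the substrates of RGS proteins, and 9 of a list of 14 were tested. Of these, 3 rose and 2 fell, or 55.6% against 19.6% of all tested genes. Gnai3, a Gi alpha subunit, rose by 0.42 on the log2 scale (SE 0.08), and Gna15, of the Gq class, rose by 0.59 (SE 0.14). Gna13 rose by 0.38 (SE 0.08), while Gna12, of the same class, fell by 0.74 (SE 0.09). Gnas, which encodes the stimulatory alpha subunit, fell from 233 ± 8.31 to 142 ± 37.9 normalized counts (SD, n = 3), or -0.62 in log2 (edgeR adjusted p 0.0254). Gnai2, the most abundant of the list by reads, stood at 6717 to 6861 normalized counts in wild-type and at 5156 to 5989 in Ahrr-deficient libraries, with an edgeR adjusted p of 0.0573. Without wild-type replicate 1, the number of called alpha subunits was 1.

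Of 9 tested beta and gamma subunits, Gng12 rose by 0.34 and Gng2 fell by 0.65 on the log2 scale, or 22.2% called, near the 19.6% of all tested genes. Among 11 tested effectors, which carry the signal on, 2 rose and 3 fell, or 45.5% against 19.6% of all tested genes. The adenylyl cyclase Adcy3 rose from 264 ± 43.9 to 442 ± 110 normalized counts, and the phospholipase Plcb1 from 188 ± 9.0 to 283 ± 67.1 (SD, n = 3). Pik3r5 and Pik3r6, regulatory subunits of the phosphoinositide kinase that responds to beta-gamma pairs, both fell, by 0.85 and 0.39 on the log2 scale. Adcy4 fell from 72.6 ± 22.8 to 27.1 ± 19.6. Of 9 tested other regulators of alpha subunits, 3 fell and 0 rose, or 33.3% lower against 9.95% of all tested genes. These were Gpsm1 (log2 fold change -0.84), Gpsm3 (-0.44) and Rap1gap (-0.62). The median was -0.20 for the effectors and also for the other regulators.

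Receptors coupled to G proteins formed the longest list, with 56 genes, 44 rows and 36 tested genes. Of these 10 rose and 10 fell, or 55.6%, where 9.62% of all tested genes were higher and 9.95% lower. Ffar2, a receptor of short-chain fatty acids, had the largest rise, with 26.6, 12.98 and 24.7 normalized counts in wild-type and 26.3, 96.9 and 94.2 in Ahrr-deficient replicates 1, 2 and 3. Its groups overlapped through Ahrr-deficient replicate 1. Hcar2, a receptor of ketone bodies and niacin, rose by 1.73 on the log2 scale (SE 0.38), and S1pr4, a receptor of sphingosine 1-phosphate, by 1.52 (SE 0.37). Gpr34, a lysophospholipid receptor, had the largest fall, from 42.0 ± 9.30 to 10.1 ± 1.85 normalized counts (SD, n = 3), or -2.27 in log2 fold change (edgeR adjusted p 0.00217, SE 0.27). Its Ahrr-deficient values rest on 4, 33 and 10 reads in replicates 1, 2 and 3. The value of replicate 1, 11.7, was near that library's floor of 8.78. The chemokine receptor Cxcr2 fell by 2.25 (SE 0.49) and the proton sensor Gpr65 by 1.14 (SE 0.31). The groups of Gpr65 overlapped, with 41.0 normalized counts in Ahrr-deficient replicate 1 and 35.2 in wild-type replicate 2.

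**Figure D4:**
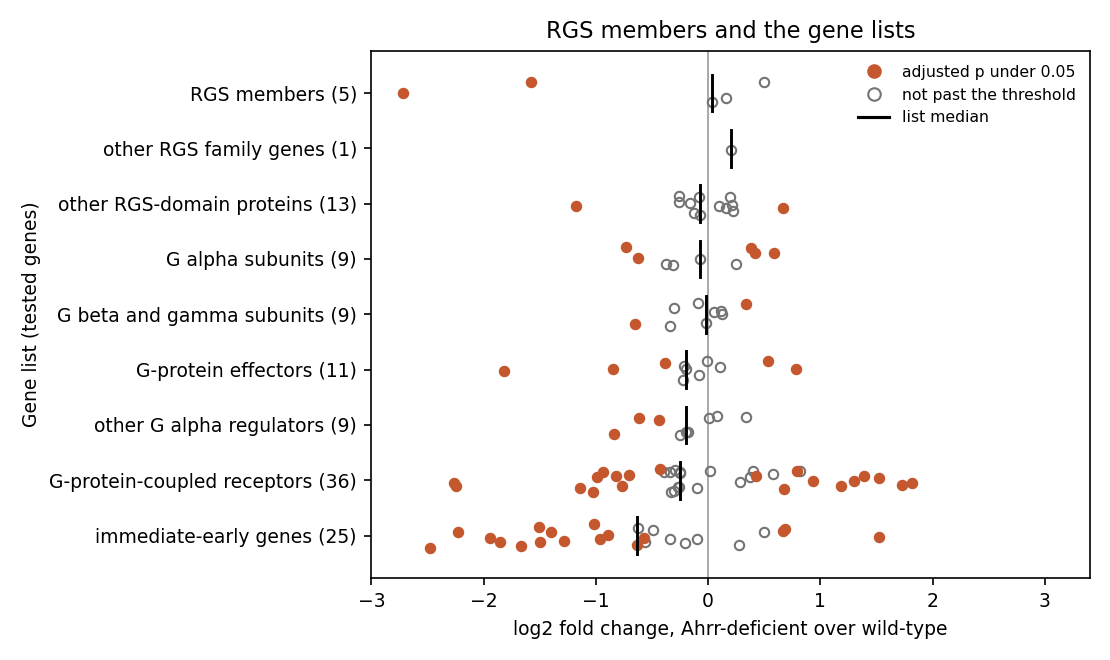
Log2 fold change (horizontal axis) of each tested gene of the RGS set and of the pathway lists, 1 point per gene, with filled points for an adjusted p under 0.05 and a bar at each median. Rgs1 lies below every tested gene of the other lists, and the receptors have 10 called genes on each side of 0.

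The pathway lists, the RGS set left out, held 88 tested genes, of which 37 (42%) were called, 17 higher and 20 lower, against 19.6% of all tested genes. Because the lists were chosen with earlier results of these data known, that share is not independent evidence for the pathway. The count was 14, 19 and 23 without wild-type replicate 1, 2 or 3, and 44, 20 and 20 without Ahrr-deficient replicate 1, 2 or 3. Without wild-type replicate 1 the calls were 8 of the receptors, 2 of the effectors and 0 of the other regulators. The share called was 15.6%, 20.7% and 25% of the pathway genes without wild-type replicate 1, 2 or 3, against 6.07%, 8.15% and 9.35% of all genes tested in those fits. Without Ahrr-deficient replicate 1, 2 or 3 it was 47.8%, 22.2% and 22.7%, against 32.6%, 8.31% and 10.3%.

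Immediate-early genes, the transcripts that stimulated cells raise first, were set beside Rgs1 and Rgs2, as a list also chosen with earlier results known. Of 25 tested, 14 fell and 3 rose, or 68% against 19.6% of all tested genes, with a median log2 fold change of -0.64. Fos, which encodes a part of the AP-1 factor, stood at 3458, 3808 and 4296 normalized counts in wild-type and at 881, 606 and 621 in Ahrr-deficient replicates 1, 2 and 3. As for Rgs2, every wild-type value of Fos was above every Ahrr-deficient one, at -2.48 in log2 fold change (edgeR adjusted p 3.08e-04, SE 0.16). Nr4a2, a nuclear receptor, fell by 2.23 and the kinase gene Sik1 by 1.94 on the log2 scale. The 3 that rose were Egr3 (1.52), Klf4 (0.68) and Klf6 (0.66), which encode zinc finger factors. With 1 library left out, between 10 and 16 of the list's genes were lower. Whether these genes and the RGS genes moved for a shared reason was not tested.

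Markers of cell types were given beside these values because some are also sites of RGS expression. In the macrophage list 2 of 13 tested genes fell and 2 rose past the threshold, or 30.8% against 19.6% of all tested genes. The list's median log2 fold change was -0.37, against 0.0076 over all tested genes. Csf1r and Cd14 fell, by 0.65 and 1.66 on the log2 scale, while Mrc1 and Itgax rose by 0.59 and 1.70. Of the megakaryocyte and platelet list 4 of 10 genes had a row, with a summed level of 1825 to 2310 normalized counts in wild-type and 2344 to 3305 in Ahrr-deficient libraries. Pf4 and Ppbp had no row, Treml1 fell by 1.95 and Itga2b by 1.10, and Vwf, which makes up most of the sum, rose by 0.56. Of the neutrophil list 5 of 11 genes had a row, and Elane, Mpo and Ly6g had none. Its sum was 930 to 1535 normalized counts in wild-type and 1972 to 2971 in Ahrr-deficient libraries, and most of it was Mmp8, which rose by 0.98 on the log2 scale. Csf3r fell by 2.69, and S100a8, Ltf and Prtn3 were not tested, at means of 15.4, 3.84 and 3.33 in wild-type and 8.60, 1.08 and 1.46 in Ahrr-deficient cells. Of the T and NK cell list 3 of 11 genes had a row, with sums of 357 to 886 and 183 to 407, nearly all from Il7r. Lck and Klrb1c did not exceed 7.58 in any library. The sums of the dendritic cell list (4 of 8 genes) were 597 to 717 and 747 to 974, mostly from Clec9a, while Zbtb46 had means of 59.7 and 45.7. Those of the erythroid list (3 of 9 genes, mostly Epor) were 158 to 238 and 29.1 to 51.3, and those of the hepatocyte list (2 of 7, mostly Trf and without Alb) 1727 to 1973 and 911 to 1247. The fibroblast and endothelial list (3 of 8) did not exceed 11.6 in any library, and 0 of 4 eosinophil genes had a row. The part of these cell types in the RGS values was not tested.

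**Figure D5:**
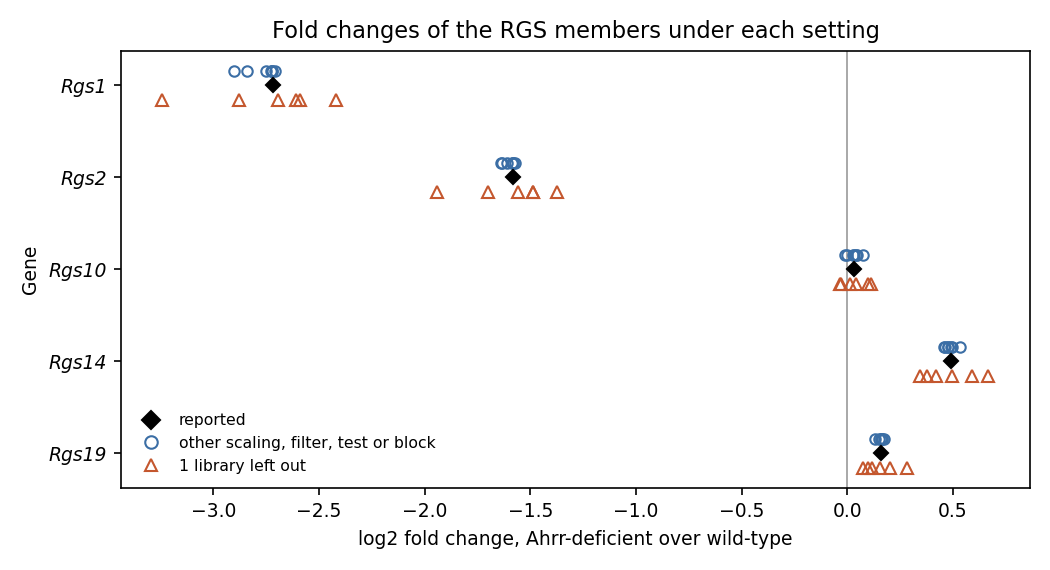
Log2 fold change (horizontal axis) of the 5 tested RGS genes as reported (diamonds), with other scaling, filter, test or block (circles) and with 1 library left out (triangles). Rgs1 stays between -3.24 and -2.42 and Rgs2 between -1.94 and -1.37, while the values of Rgs10 lie on both sides of 0.

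Rgs1 and Rgs2 passed the threshold under all 13 alternatives, with an adjusted p of at most 0.0146 for Rgs1 and 0.0310 for Rgs2 by the tool of each alternative. For both genes the largest fall came without Ahrr-deficient replicate 1, the library with the highest value of its group. Rgs19 was past the threshold under 0 of the 13, with log2 fold changes between 0.08 and 0.28.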

How the data were processed

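PolyA RNA of 6 cultures was sequenced as single 75 bp reads with a TruSeq v2 kit, per the labels' protocols. The authors deposited raw read counts for 53465 rows without identifiers. They also deposited a normalized signal (counts over a size factor per library) for 16111 identified rows with a total of at least 10 counts. The submitters' processing notes name fastp 0.20.0, STAR 2.7.10b, SAMtools 1.16.1, CASAVA 1.8.2, R 4.3.1, DESeq2 1.40.2 and the build mm10. The counting program, strand setting and annotation are not given in the sources used here.

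Signal times the recomputed size factor gave whole reads for 100% of values (tolerance 1e-06), equal as a set to the deposited counts with that total, and these reads were tested. Rows without identifiers held 0.0232% to 0.0511% of counts. GENCODE release 21 held 16088 of the 16111 identifiers. Genotype was tested with the edgeR 4.0.16 quasi-likelihood test (TMM scaling, filterByExpr, two-sided), with SEs from the test. On simulated data with 11302 genes it recovered 94% of 2-fold falls and 96% of 2-fold rises. The simulation gave every gene the same biological coefficient of variation, 13%, so recovery for more variable genes was not tested. Replicate pairs differed beyond counting noise. The promoter search also covered TGANTCA and TATAAA.

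Alternatives were fits leaving out 1 library each, a block for the replicate number, limma-voom (limma 3.58.1), DESeq2 1.42.0, RLE and upper-quartile scaling, and either no filter or one at an average of 50 counts. The RGS set, the lists (other RGS genes, RGS-domain proteins, G alpha subunits, beta and gamma subunits, effectors, other regulators, receptors, immediate-early genes and cell type markers) and the rules were chosen with earlier results of these data known. Named list genes are all called ones where at most 6, otherwise the 3 largest rises and falls. Markers, and other genes named without a call, were chosen after their values were seen.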

Additional observations from a re-analysis of the deposited data

How the results depend on the processing

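Of 104 values over 13 alternatives, 86 stayed on the same side of 0 and of the threshold, or, for counts, within 1.5 times. The number of genes past the threshold was 2232 as reported, 694 to 3857 with 1 library left out and 2859 without a filter on low counts. The pathway count of 37 ran from 14 to 44 with 1 library left out. With upper-quartile scaling 41.8% of the called genes were higher, against 49.1% as reported. Rgs10, at 0.03, ran from -0.033 to 0.11 with 1 library left out and changed sign with upper-quartile scaling (-0.00057), with limma-voom (-0.0090), without wild-type replicate 2 (-0.033) and without Ahrr-deficient replicate 1 (-0.030). Rgs14 passed without a filter (0.49, edgeR adjusted p 0.00823) and without Ahrr-deficient replicate 1 (0.59). The fit without a filter gave SEs of 0.14 for Rgs1 and 0.15 for Rgs14, against 0.36 and 0.19 as reported. For Rgs10 its SE was larger, at 0.17 against 0.14. The cause of these moves was not tested. With the replicate number as a block 1390 genes were called, Rgs1 and Rgs2 among them. Deviations of same-numbered libraries correlated at -0.17, 0.07 and 0.13, so the numbers were not taken to pair them. At 3556106 counts, Ahrr-deficient replicate 1 limits what can be said of Rgs3.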

Other observations

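Rgs4, an RGS gene known from nerve and muscle, had 20.5 normalized counts in Ahrr-deficient replicate 1, from 7 reads, against 1.85 to 3.39 in each other library. Rgs12 had 2.93 to 12.5 normalized counts in the Ahrr-deficient libraries and 5.56 to 7.26 in wild-type. Both fell under the filter on low counts, and without that filter the edgeR adjusted p was 0.498 for Rgs4 and 0.533 for Rgs12. Among the 16088 genes matched to the annotation, Rgs1 stood at the 98.3 percentile of the level per kilobase in wild-type and at the 87.9 in Ahrr-deficient cells. Rgs2 stood at the 97.7 and 93.1 percentile and Rgs19 at the 91.9 and 93.0.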
